A study of Caenorhabditis elegans with 2 samples.

Results

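The nuclear genes of the respiratory chain were taken as all protein-coding genes on the 6 nuclear chromosomes whose symbol begins with nuo-, nduf-, sdha-, sdhb-, sdhd-, ucr-, cox- or atp- and goes on with a number. There were 41 of them among 19973 protein-coding genes. They were examined in a ChIP-seq map of SMA-9 binding in Caenorhabditis elegans (ChIP-seq is the sequencing of DNA recovered by chromatin immunoprecipitation). SMA-9 is the worm's Schnurri protein, a DNA-binding factor with zinc fingers that works with Smad proteins in BMP-like signalling. The worms were hermaphrodites of strain LW1254, which carries the integrated transgene jjIs1254 with sma-9C2::gfp and an unc-119(+) rescue marker in an unc-119(ed4) background. They were collected whole as L2 larvae, 22 hours after release from starvation as L1 larvae, and the fusion was precipitated with an antibody against GFP. The study has 1 group with 2 biological replicates and no second condition, so nothing was compared between treatments. The promoter that drives the fusion is not given in the labels, and the cell types in which a site was bound cannot be told apart in whole larvae. A control experiment that the labels name was not analysed here.

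The respiratory chain sits in the inner mitochondrial membrane. Complexes I and II pass electrons from NADH and succinate to coenzyme Q, complex III passes them to cytochrome c, and complex IV passes them to oxygen. Complexes I, III and IV pump protons, and complex V, the ATP synthase, uses the gradient to make ATP. Most subunits are encoded in the nucleus, and a few core subunits are encoded in mitochondrial DNA. Many worm genes lie in operons, in which several genes in a row are transcribed from 1 upstream promoter and the transcript is cut apart by trans-splicing.

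Binding was read from the authors' IDR list. IDR, the irreproducible discovery rate, measures how well peaks hold their rank from 1 replicate to the other. The list held 7065 peaks, and a gene was called bound when the summit of one lay within 1000 bp of any annotated 5' end of its transcripts. The peak signal is the authors' value for each peak and has no stated unit. It ranged from 62.0 to 2844, with a median of 109. The lists hold no read counts, so read depth is unknown, and with 2 replicates the precision is limited. Coordinates are 1-based on ce11 (WBcel235).

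Of the 41 genes 20 were bound, or 48.8% (95% Wilson interval 34.3 to 63.5%), against a background of 20.2% over all protein-coding genes. All 20 encode subunits of the complexes, of which there were 33. None of the 8 genes for complex IV assembly factors was bound. The interval covers counting over genes only, and genes are not replicates. The gene set was chosen with earlier results of these data known. The respiratory chain genes had 1.32 annotated 5' ends on average, against 1.49 over all genes. Of those with a single annotated end 14 of 32 were bound (43.8%), against 16.3% of all genes with a single end. Of those with more than 1 end 6 of 9 were bound (66.7%), against 30.4% of all such genes. Expression level was not matched between the respiratory chain and other genes, and its part in these shares was not tested. The samples include no worms lacking the transgene.

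The count of bound genes ran from 15 to 24 with the way peaks were chosen and given to genes. With a window of 500 bp 18 of the 41 genes were bound, against 15.4% of all genes, and with 2000 bp 24 were, against 27.6%. Limiting the list to the 3532 peaks of higher signal left 15 bound, against 11.8%, and giving each summit only to its nearest 5' end left 16, against 16.6%. With 1 start per gene 19 were bound, against 18.7%, and 20 were on the upstream side alone, against 18.1%. When any base of a peak counted, 22 were bound, against 21.1%. The first 7065 nuclear peaks of replicate 2, without replicate 1, gave 19, against 20.2%, and those of replicate 1 alone, without replicate 2, gave 21, against 20%. The respiratory chain share was above the background in each of these settings.

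The authors' pooled list reaches further down in signal. A pooled call lay within 1000 bp of 26 of the 41 genes (63.4%), against 47.1% of all genes. Of the 21 unbound genes 6 had such a call (28.6%), each weaker than the lowest IDR peak, against 33.8% of all unbound genes. A call in both replicate lists lay near 4 of the 21 (19.05%), against 22.5% of all unbound genes, and 10 (47.6%) had a call in neither, against 51.6%.

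**Figure D1:**
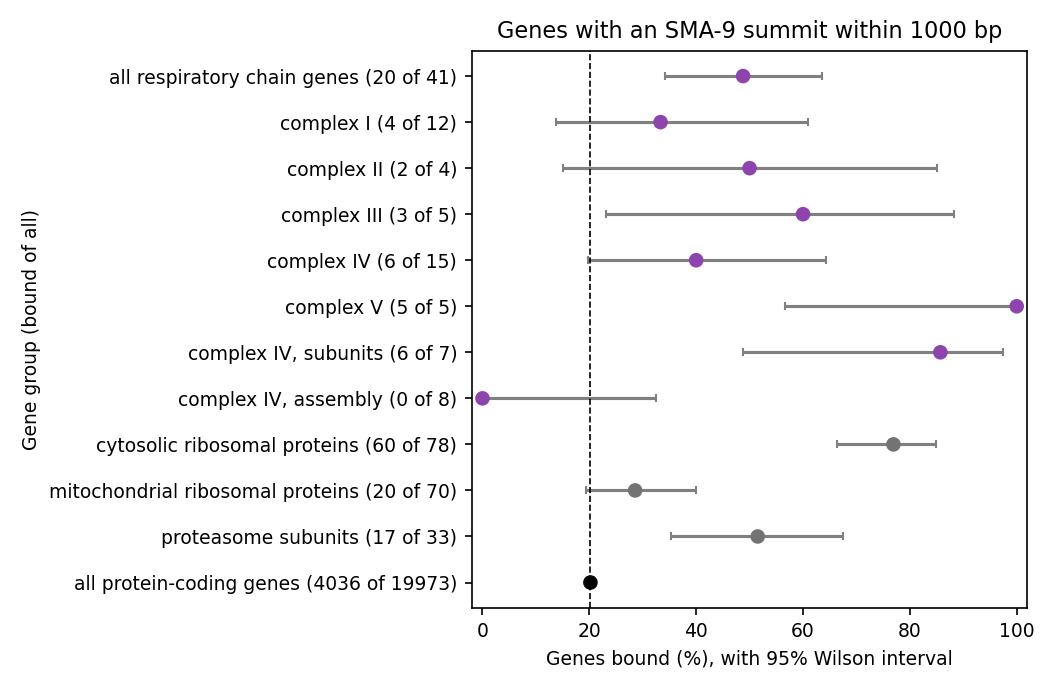
Share of genes bound by SMA-9 on the horizontal axis, in percent, for the respiratory chain genes, their complexes (genes within the naming rule only) and, in grey, other families. Points are shares and bars are 95% Wilson intervals, and the dashed line is the share over all protein-coding genes. The atp- genes of complex V stand at 5 of 5, complex IV subunits at 6 of 7 and complex IV assembly genes at 0 of 8, against 20.2% overall.

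The bases under the summits are shown for 1 strongly bound gene of each complex, so that the sequence SMA-9 was found on can be read beside its signal. Each had the strongest peak of its complex except atp-5, since atp-1 and atp-3 had stronger peaks in complex V. Each run holds the summit and 50 bases to either side, from the RefSeq WBcel235 genome, and reads 5' to 3' on the strand of the gene. Capitals mark the motifs searched on either strand. Smad-type sites were searched as GTCTAGA or as the shorter GTCTG. Sites of GATA factors were searched as GATAA, the E-box as CACGTG, sites of AP-1 factors as TGACTCA and the splice acceptor as TTTCAG. The other motifs were CTCCGCC, then GCGTCTC, then GAGAGA. A further motif, GCGTTTC, was added after these runs had been read. The windows are chrII:11345759-11345859 on the minus strand for nduf-11, chrX:8546184-8546284 on the minus strand for sdha-1, chrX:15173636-15173736 on the plus strand for ucr-2.2, chrIII:12905149-12905249 on the plus strand for cox-5A and chrV:11124096-11124196 on the minus strand for atp-5.
nduf-11: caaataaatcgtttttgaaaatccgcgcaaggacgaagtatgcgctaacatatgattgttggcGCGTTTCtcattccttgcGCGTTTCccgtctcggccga
sdha-1: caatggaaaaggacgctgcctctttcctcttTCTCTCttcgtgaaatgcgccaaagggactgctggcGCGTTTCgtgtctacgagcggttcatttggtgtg
ucr-2.2: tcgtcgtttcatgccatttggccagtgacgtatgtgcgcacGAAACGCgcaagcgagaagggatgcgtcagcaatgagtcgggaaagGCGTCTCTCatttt
cox-5A: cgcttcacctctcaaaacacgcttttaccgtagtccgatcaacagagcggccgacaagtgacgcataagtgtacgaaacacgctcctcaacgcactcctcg
atp-5: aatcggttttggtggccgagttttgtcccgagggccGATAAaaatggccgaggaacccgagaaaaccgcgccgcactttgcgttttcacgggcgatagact

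Over the 20 summits the median GC content was 51.5%, with a range of 41.6 to 60.4%, against a median of 43.6% over all IDR summits. GATAA was found in 1 of the 20 windows (5%), the one at atp-5, against 33.0% of all IDR windows. GTCTG was found in 5 (25%), at ucr-1, ucr-2.1, cox-5B, cox-6A and atp-1, against 18.6%. TTTCAG was found in 3 (15%), at nuo-1, ucr-1 and atp-2, against 6.34%, and GCGTCTC in 3, at nuo-1, ucr-1 and ucr-2.2, against 8.34%. GAGAGA was found in 4 (20%), at nduf-7, sdha-1, sdhd-1 and ucr-2.2, against 25.6%. At ucr-2.2 the GCGTCTC and GAGAGA matches overlap. The other motifs were in 0 of the 20 windows. Of all IDR windows GTCTAGA was in 0.694%, CACGTG was in 7.36%, TGACTCA was in 1.30% and CTCCGCC was in 2.35%. These are counts of letters in short windows and were not tested. The windows of all IDR summits were not matched to the 20 for GC content or for distance from a 5' end.

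Counts by complex cover only the genes within the naming rule, not the whole complex. In complex I, 4 of 12 such genes were bound (33.3%, interval 13.8 to 60.9%), and the 20.2% of all genes lies inside that interval. The strongest was nduf-11 (II 11343721 to 11345620, minus strand), which encodes an accessory subunit of the membrane arm. Its peak at II 11345731 to 11345875 had an IDR-list signal of 305, with 165 in replicate 1 and 144 in replicate 2, and its summit lay 189 bp upstream of the 5' end. The peak nearest to nduf-2.2, a paralog of the core subunit gene gas-1, lay at III 6464196 to 6464465 with a signal of 207, and it had 114 in replicate 1 and 112 in replicate 2. That summit was 891 bp from nduf-2.2 and 552 bp from dlc-1 on the opposite strand, so it was closer to the neighbour. The nuo-1 gene, for the flavoprotein that takes electrons from NADH, had a signal of 145 at II 11097509 to 11097618, with 93.2 and 51.2 in replicates 1 and 2. Its summit lay between nuo-1 (292 bp) and the ribosomal protein gene rpl-36.A (341 bp), which points the other way. The weakest was nduf-7, for an iron-sulfur subunit, with a signal of 96.7 at I 9110880 to 9111149. It had 72.2 in replicate 1 and 31.2 in replicate 2, and its summit lay 97 bp upstream. Replicate 1 gave the higher value at all 4 genes.

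The 8 complex I genes that were not bound were nuo-2, nuo-3, nuo-4, nuo-5, nuo-6, nduf-5, nduf-6 and nduf-9. They include core and accessory subunits. The nearest IDR summit was 2967 bp away for nuo-3 and nuo-4 and 73096 bp away for nduf-5. In the authors' pooled list, which also holds calls too weak to pass, nuo-3 had a call of signal 28.5 lying 421 bp downstream of a 5' end. The nduf-6 call of 22.0 lay 980 bp downstream of the 5' end, past the 3' end of the gene. At nduf-9 a replicate 1 call of 54.2 lay 655 bp upstream of the 5' end, and replicate 2 had none within 1000 bp.

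Complex II links the citrate cycle to the chain. It had 2 of 4 genes bound (50%), with a wide interval that reaches up to 85.0% and holds the 20.2% of all genes. The flavoprotein gene sdha-1 had a signal of 338 at X 8546157 to 8546314, 213 bp upstream of its 5' end, with 197 in replicate 1 and 141 in replicate 2. The membrane anchor gene sdhd-1 had a signal of 87.3 at II 11049946 to 11050215, with 66.1 in replicate 1 and 23.6 in replicate 2. The replicate 2 call at sdhd-1 ranked 9158 in its list, below the first 7065, and without replicate 1 the gene was not bound. The summit lay 168 bp from sdhd-1 and 174 bp from ilkp-1 on the opposite strand. The second flavoprotein gene, sdha-2, and the iron-sulfur subunit gene sdhb-1 were not bound, with the nearest IDR summits 43113 and 3401 bp away. A pooled call of signal 32.2 lay 246 bp upstream of sdha-2.

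In complex III, 3 of 5 genes were bound (60%, interval 23.1 to 88.2%), against 20.2% of all genes. The ucr-1 and ucr-2 genes encode core proteins related to mitochondrial processing peptidases. The ucr-2.2 peak at X 15173632 to 15173771 had a signal of 309.8 and lay 218 bp upstream of the 5' end, with 173 in replicate 1 and 141 in replicate 2. The ucr-2.1 peak at X 12018099 to 12018187 had a signal of 249, with 132 and 114 in replicates 1 and 2. Its summit was 285 bp from ucr-2.1 and closer than that to nmat-1 on the opposite strand. The ucr-1 peak at III 5591860 to 5592129 was weaker, with a signal of 92.8, and 56.9 and 39.8 in replicates 1 and 2, and its summit lay 140 bp from ucr-1 and 277 bp from ddx-15. The third paralog, ucr-2.3, was not bound and had a pooled call of signal 48.4 lying 611 bp downstream of its 5' end. The small subunit gene ucr-11 was not bound either, with a pooled call of 56.3 lying 78 bp downstream of its 5' end.

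In complex IV, cytochrome c oxidase, the subunit genes and the assembly genes differed in their counts. Of the 7 subunit genes 6 were bound (85.7%, interval 48.7 to 97.4%). Of the 8 assembly genes 0 were bound (interval 0 to 32.4%). A rougher limit for a count of 0, which is 3 divided by the number of genes, is 37.5%. The share over all genes, 20.2%, lies inside the interval of 0 to 32.4%, so the absence of calls at the assembly genes does not set them apart from other genes. The split into subunits and assembly genes follows the known roles. It also goes in part with gene spacing. The gap to the next gene upstream on the same strand was 95 to 118 bp for cox-11, cox-15, cox-17, cox-18 and cox-19. It was 540 bp or more for cox-10, cox-14 and cox-16, and 1062 bp or more for every subunit gene. For cox-6B the gap was measured from the annotated gene start, while the summit lay near an internal 5' end. Of all genes 10.8% were bound with a gap under 150 bp, against 21.6% with 500 bp or more. Role and spacing were not separated, and the split was not tested.

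The strongest peak of all 41 genes was at cox-5A, for a subunit on the matrix side of the enzyme, at III 12905096 to 12905290 and 292 bp upstream of the 5' end. Its signal was 785, which ranked 83 of the 7065, and it had 420.1 in replicate 1 and 377 in replicate 2, ranks 99 and 77. The cox-6A peak at III 5080846 to 5081010 had a signal of 439 and lay 800 bp upstream, with 279 in replicate 1 and 163 in replicate 2. The cox-6B peak at III 2785979 to 2786119 had a signal of 331, with 163 in replicate 1 and 169 in replicate 2. It fell in an intron of the longest cox-6B transcript and 146 bp upstream of an internal 5' end, and Y71H2AM.20 on the opposite strand was 108 bp away. The gene nduc-2, of complex I but outside the naming rule, lay 796 bp from the same summit and on the same strand as cox-6B.

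The cox-5B gene, known from longevity studies as cco-1, had a signal of 242 at I 9788646 to 9788771, only 20 bp upstream of a 5' end. It had 153 in replicate 1 and 86.3 in replicate 2. The cox-4 peak at I 13659454 to 13659723 had a signal of 138 at 461 bp upstream, with 72.3 and 67.1 in replicates 1 and 2. The weakest of the bound subunit genes was cox-6C, with a signal of 78.8 at IV 126213 to 126482, with 48.8 and 33.7, and a summit 383 bp from cox-6C and 417 bp from grld-1 on the opposite strand. The subunit gene cox-7C was not bound, since its nearest IDR summit, with a signal of 64.4, lay 1012 bp from its 5' end.

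The assembly genes were cox-10 and cox-15 for heme synthesis, cox-11, cox-17 and cox-19 for copper delivery, cox-18 for membrane insertion, and cox-14 and cox-16. The nearest IDR summit was 1001 bp from cox-19 (signal 103), 1864 bp from cox-10 (signal 225), and between 3086 and 36613 bp from the others. The call at cox-19 thus missed the limit by the smallest distance of all 21 unbound genes, followed by that at cox-7C. On the inner side of the limit the farthest summits were those of nduf-2.2 at 891 bp and cox-6A at 800 bp. The only pooled call within 1000 bp of an assembly gene had a signal of 22.7, at cox-15. Replicate 1 had a call of 48.3 lying 999 bp downstream of the cox-19 5' end, past the 3' end of that gene. It also had a call of 25.0 lying 199 bp upstream of a cox-16 5' end, and replicate 2 had none at either gene. Without replicate 2, or when any base of a peak counted, cox-19 was bound and the count of assembly genes was 1 of 8.

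All 5 complex V genes named atp- were bound (interval 56.6 to 100%), against 20.2% of all genes. The alpha subunit gene atp-1 had a signal of 409 at I 12652189 to 12652347, 6 bp upstream of its 5' end, with 241 in replicate 1 and 172 in replicate 2. The stalk subunit gene atp-3 had a signal of 205 at I 5429803 to 5430072, 30 bp upstream of its nearest 5' end, with 131 and 77.8. These were among the summits closest to a 5' end, and the cox-5B summit lay between them in distance. The peak of atp-5, for subunit d, had a signal of 163 at V 11124088 to 11124198, with 106 in replicate 1 and 58.4 in replicate 2. Its summit lay 279 bp from atp-5 and 40 bp from lmtr-3 on the opposite strand. The catalytic beta subunit gene atp-2 had its peak at III 5228043 to 5228312, with the summit 239 bp upstream and a signal of 126, with 53.5 in replicate 1 and 74.3 in replicate 2. It was 1 of the 3 genes with the higher value in replicate 2. The gene of coupling factor atp-4 had the weakest peak of the 20, with a signal of 68.3 at V 6427447 to 6427716 and 470 bp upstream. That summit lay beyond the gap of 95 bp to alh-4, the next gene upstream on the same strand, and so within alh-4. The replicate 1 value at atp-4, 32.0, ranked 8012 and the replicate 2 value, 34.0, ranked 6070. Without replicate 2 atp-4 was not bound.

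**Figure D2:**
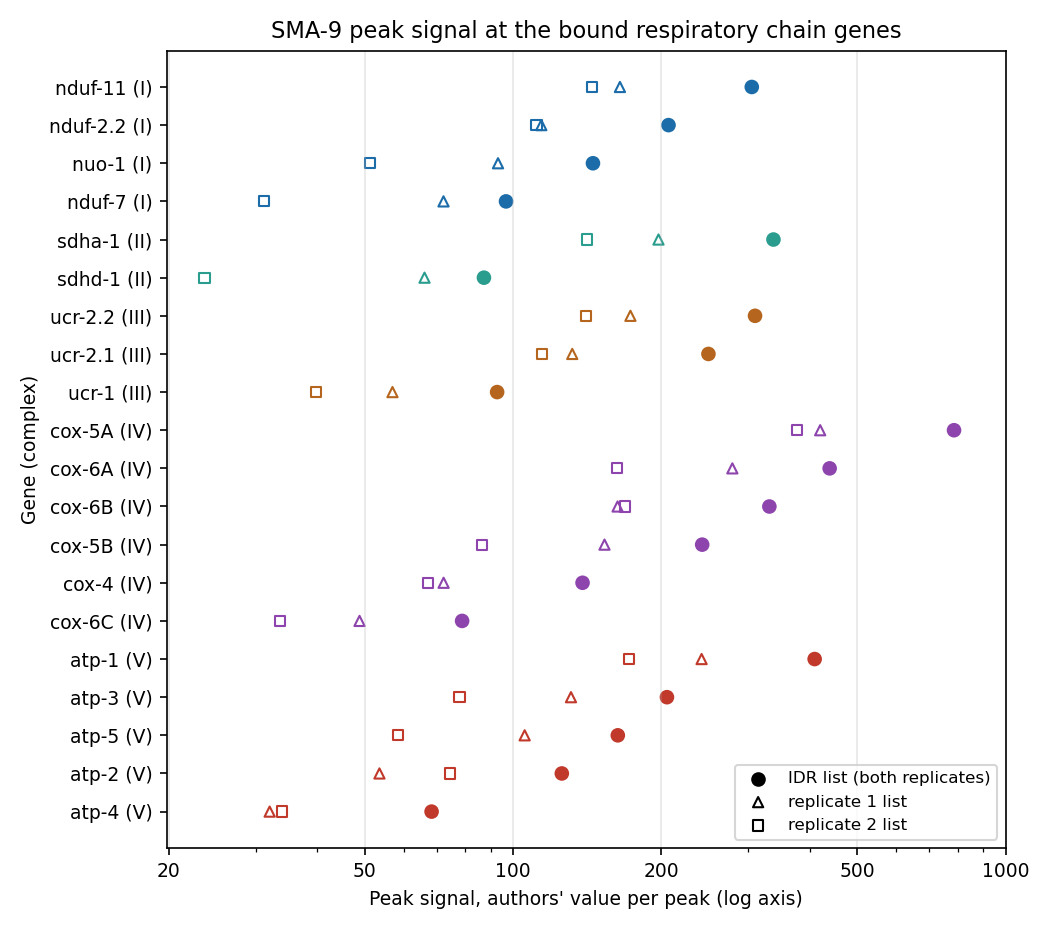
Peak signal on a log axis for the 20 bound genes, in order of complex and then of signal; filled circles give the IDR list, open triangles the replicate 1 call at the same summit and open squares the replicate 2 call. Signals run from 68.3 at atp-4 to 785 at cox-5A, and the replicate 1 value is the higher at 17 of the 20 genes.

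The median signal at the 20 bound genes was 206 (range 68.3 to 785), against 122 over the strongest peak of each of the 4036 bound genes. Of the 20, 7 (35%) had a peak among the first 706 of the 7065 by signal, against 12.9% of all bound genes, and 15 (75%) were among the first 3532, against 58.2%. Both replicates had a call over each of the 20 summits, as they did over 95.2% of all IDR summits. The median at these summits was 123 in replicate 1 and 82.1 in replicate 2, and the lists do not state a shared scale. When each replicate was used alone, with its first 7065 nuclear peaks, 18 of the 41 genes were bound in both, against 16.4% of all genes. Since the IDR list was made from the 2 replicates, these numbers are not independent of how it was made.

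Summits lay on the upstream side of the 5' end at all 20 genes, against 83.8% of all bound genes. The median distance was 229 bp, against 262 bp over all bound genes, and 8 of 20 (40%) lay within the first 200 bp upstream, against 35.1%. Each bound gene had a single IDR summit within 1000 bp, while 14.2% of all bound genes had more than 1. A second gene had a 5' end within 1000 bp of the summit at 11 of the 20 genes (55%), against 37.9% of all bound genes. At all 11 this neighbour was on the opposite strand, and cox-6B had nduc-2 on its own strand as well. At 4 genes, nduf-2.2, ucr-2.1, cox-6B and atp-5, the other gene was closer to the summit. A summit between divergent genes cannot be given to either of them from these lists.

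**Figure D3:**
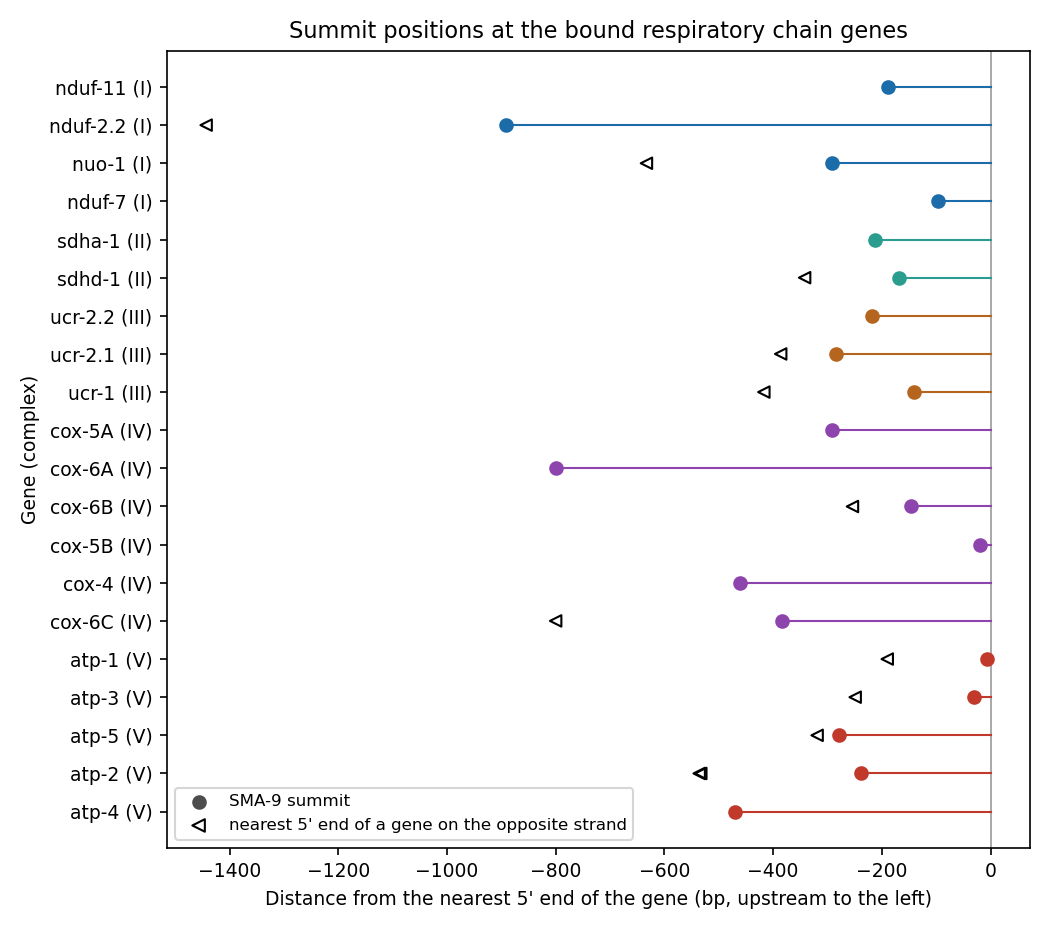
Distance of the SMA-9 summit from the nearest annotated 5' end of each bound gene, in bp, with upstream to the left; open triangles mark the nearest 5' end of a gene on the opposite strand within 1000 bp of the summit. All 20 summits lie upstream, from 6 bp at atp-1 to 891 bp at nduf-2.2, and 11 genes have such a neighbour.

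Bound and unbound genes were also set against their place in rows of genes. The gap to the next gene upstream on the same strand was under 500 bp for 14 of the 41 genes, and 4 of these (28.6%) were bound, against 14.02% of all genes with such a gap. Of the 27 others 16 were bound (59.3%), against 21.6%. With a gap under 150 bp 1 of 10 was bound, atp-4, against 10.8% of all such genes. The atp-4 summit lay past the gap, within the upstream gene alh-4. These gap limits were chosen after the values were seen and were not tested. Gaps near 100 bp are typical of genes inside operons, but the annotation used here does not list operons.

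The 10 unbound genes with a short gap were nuo-2, nuo-4, nuo-5, sdha-2, ucr-11, cox-11, cox-15, cox-17, cox-18 and cox-19. Genes were followed upstream on the same strand for as long as the gaps stayed under 500 bp. The first gene of the row was itself bound for 5 of the 10 (50%), against 26.9% of the 3108 unbound genes with such a gap over the whole genome. For cox-11 it was lin-54, a DNA-binding subunit gene of the DRM complex, 2 genes before it, with a signal of 553 at IV 13240585 to 13240785. For cox-18 it was Y55F3AR.2, next to it, with 448 at IV 1094269 to 1094440. The first genes before ucr-11, nuo-4 and cox-15 were dad-1, syf-2 and rpn-9, with signals of 282, 220.4 and 143. The summits lay 174 to 402 bp upstream of these first genes. The first genes before nuo-2, nuo-5, sdha-2, cox-17 and cox-19 were not bound. All 4 bound genes with a short gap also had a bound first gene, with another summit: B0491.6 before nduf-11, D2021.4 before sdha-1, ocr-3 before ucr-2.2 and alh-4 before atp-4. Of all 507 bound genes with a short gap 46.0% had a bound first gene, 33.1% with another strongest summit. These counts were not tested.

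**Figure D4:**
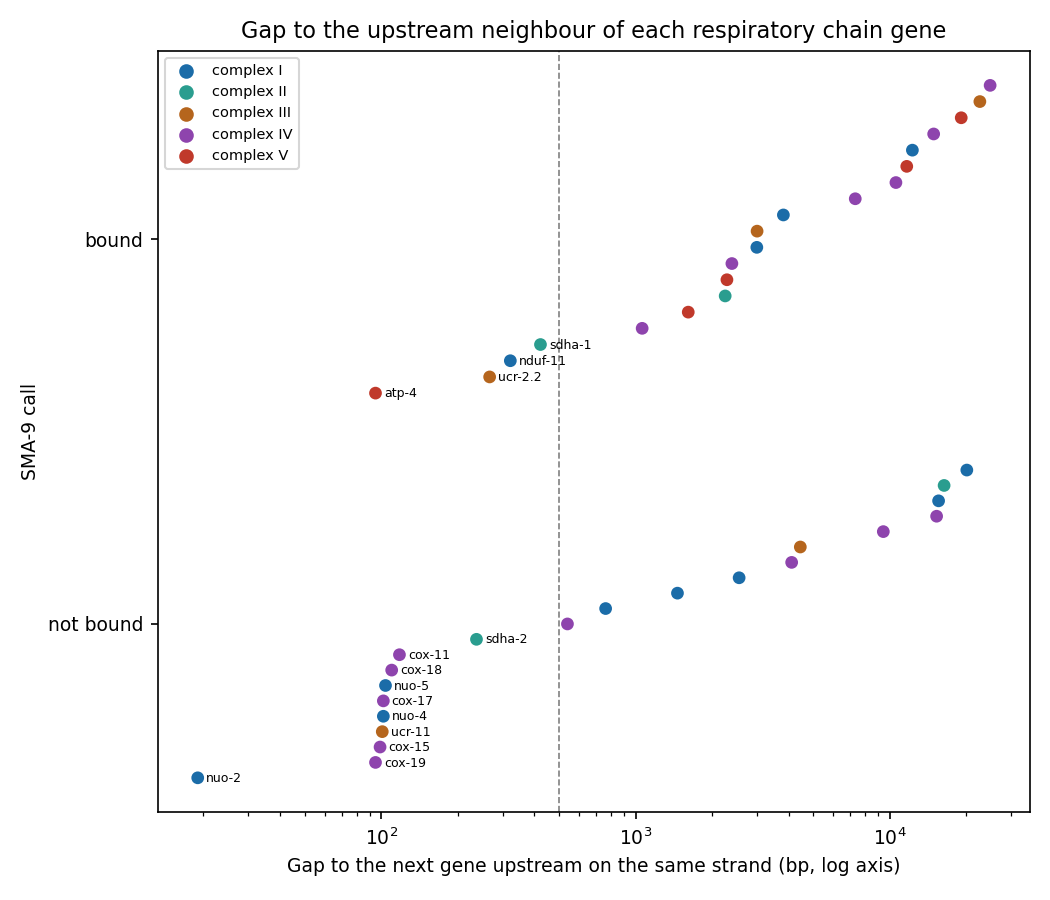
Gap to the next gene upstream on the same strand, in bp on a log axis, for bound genes (upper row) and unbound genes (lower row), coloured by complex; points are spread vertically by rank of gap, and the dashed line marks 500 bp. A cluster of unbound genes has gaps near 100 bp, and atp-4 is the single bound gene with a gap under 150 bp.

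Subunit genes with other names, along with genes for cytochrome c and for ATPase inhibitors, were taken from a list of 14. It is partial and leaves out ndua-13 and nduc-2 among others. The list was chosen with earlier results of these data known. Of the 14 genes 9 were bound (64.3%, interval 38.8 to 83.7%), against 20.2% of all genes. They include cyc-1, for cytochrome c1 of complex III, whose peak at I 8024652 to 8024803 had a signal of 299, with 184 in replicate 1 and 111 in replicate 2. The complex V stalk gene asb-2 had 271 at X 4469410 to 4469547 and asg-2 had 221 at X 6840971 to 6841060, while their paralogs asb-1 and asg-1 were not bound. The cytochrome c gene cyc-2.1 had 200.5, at a summit in an intron, and mev-1, for the cytochrome b subunit of complex II, had 198. The ATPase inhibitor genes mai-1 and mai-2 had 163, in an intron, and 79.5, the ATP synthase epsilon gene hpo-18 had 75.9, and the Rieske iron-sulfur gene isp-1 had 65.1. The complex I genes gas-1 and lpd-5 and the second cytochrome c gene cyc-2.2 were not bound.

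Of 11 genes of assembly and inner membrane structure with other names 5 were bound (45.5%, interval 21.3 to 72.0%), against 20.2% of all genes. They were led by sco-1, for a copper chaperone of complex IV, with a signal of 574 at II 4299355 to 4299520, 312 in replicate 1 and 263 in replicate 2. This gene stands beside the cox- assembly genes in role and was bound. The others were the AAA protein gene atad-3 (373), the prohibitin gene phb-2 (156), the MICOS gene immt-1 (136) and the complex I assembly gene nuaf-1 (109.8). The genes phb-1, sft-1, nuaf-3, cchl-1, immt-2 and moma-1 were not bound. Of 8 genes of coenzyme Q synthesis 2 were bound, coq-3 (signal 92.9) and coq-1 (79.02), from summits 883 and 766 bp upstream of a 5' end. The coq-3 summit fell in an intron of its longer transcripts, upstream of an internal 5' end. That share, 25%, is near the 20.2% of all genes, and clk-1, coq-2, coq-4, coq-5, coq-6 and coq-8 were not bound. The assembly and coenzyme Q lists were chosen with earlier results of these data known.

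Other families of housekeeping genes give the scale of these shares. Cytosolic ribosomal protein genes were bound at 60 of 78 (76.9%), proteasome subunit genes at 17 of 33 (51.5%) and mitochondrial ribosomal protein genes at 20 of 70 (28.6%, interval 19.3 to 40.1%). The median signals of their bound genes were 244, 142 and 155, against 206 for the respiratory chain. No family was tested against another, and none was matched for expression.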

How the data were processed

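Per the file headers, each replicate's peak list was derived from its alignments and 1 further file, a pooled list from both replicates, and the IDR list from these 3. The software for alignment and peak calling, like the IDR cutoff, was not given in the sources used here. The authors' signal per peak and a −log10 q-value were deposited in each list. The q-value was 4.17 at every IDR peak and was not used. The lists on ce10 were not used, since no coordinates were converted. Peaks were ranked by signal within a list. Genes came from Ensembl release 115, with 29773 annotated 5' ends of 19973 nuclear protein-coding genes. Sequence came from the RefSeq WBcel235 genome. Genes with an IDR summit at most 1000 bp from any 5' end were called bound. No test was run, since there is 1 group. The text names every respiratory chain gene and every bound gene of the lists of coenzyme Q synthesis, the citrate cycle and genes with other names. In these lists cco-1, cco-2 and ecsit-1 were not found as symbols. The members and lists were chosen with earlier results of these data known. The assignment was tested on simulated data, where all 100 summits placed inside the window were called and 0 outside it were miscalled. Python 3.11.15 with pandas 2.3.3, numpy 2.4.6 and scipy 1.17.1 was used.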

Additional observations from a re-analysis of the deposited data

Results flagged for a closer look

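Replicate 2 held 17 calls on mitochondrial DNA, outside the nuclear chromosomes that the report uses, while replicate 1, the pooled list and the IDR list held 0. Their signals ran from 192 to 1591, and the highest ranked 1 of the whole replicate 2 list. Of the 12 protein-coding genes of mitochondrial DNA, which encode core subunits of complexes I, III, IV and V, 8 had a summit inside them. These held 12 of the 17 summits. The share of mitochondrial DNA that lies inside these genes was not worked out, so the count is not a result about them. No control sample was analysed here, and the cause was not tested. Ranks of nuclear genes in replicate 2 count these calls, and the lists of single replicates used for calls leave them out.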

How the results depend on the processing

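The count of 20 bound genes stayed between 15 and 24 over 10 alternatives, against backgrounds of 11.8 to 27.6%, and 10 genes were bound in every setting. It was 18 with a window of 500 bp (background 15.4%), 24 with 2000 bp (27.6%), 15 with the 3532 peaks of higher signal (11.8%), 19 without replicate 1, 21 without replicate 2, 16 when a summit was given only to its nearest 5' end (16.6%), 19 with 1 start per gene, 22 for any base of a peak and 20 on the upstream side only (18.1%). Limiting 5' ends to coding transcripts, chosen after seeing the data, left it at 20. Complex II moved from 2 bound genes to 1 with these 3532 peaks, and held 1 to 2 when a replicate was left out, the lower value without replicate 1. With a window of 2000 bp 9 of 15 complex IV genes were bound, cox-10 and cox-19 among them. The median signal of 206 was 249 with these 3532 peaks, by construction. It was 175 with the nearest 5' end only, a setting that left out nduf-2.2, ucr-2.1, cox-6B and atp-5 and kept the other signals. It was 86.3 to 114 when a replicate was left out, which takes the other replicate's own signal. The read depth behind each peak is unknown.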

Other observations

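Enzymes of the citrate cycle, which feeds electrons to complexes I and II, were bound at 11 of 16 (68.8%, interval 44.4 to 85.8%), against 20.2% of all genes. The list was chosen with earlier results of these data known, so its share is a description only. The strongest were dld-1, for the lipoamide dehydrogenase shared by several enzyme complexes, whose peak at IV 14464188 to 14464350 had a signal of 476, and the aconitase gene aco-2, whose peak at III 7973305 to 7973475 had 427. The succinyl-CoA ligase gene sucl-1 had 329, the malate dehydrogenase gene mdh-2 had 236 and the fumarase gene fum-1 had 196. All 5 isocitrate dehydrogenase genes of the list were bound, with idhb-1 at 174, idhg-1 at 159.9, idh-2 at 123, idhg-2 at 100.6 and idha-1 at 65.3. The succinyl-CoA ligase gene suca-1 had 102.4. The citrate synthase gene cts-1 was not bound, nor were ogdh-1, dlst-1, sucg-1 and sucl-2.

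The letters GCGTTTC stood in 3 of the 5 windows printed above, at nduf-11, where they occur at 2 places, sdha-1 and ucr-2.2. Over the 20 bound genes the same 3 windows held them (15%), against 2.19% of all 7065 IDR windows, 3.14% of the strongest summits of all bound genes, and 3.45% of the IDR windows whose GC content was at or above the median of the respiratory chain summits. Windows centred 250 bp to either side of the summits held them in 0 of 40 at the respiratory chain genes and in 0.686% at all IDR peaks. The letters were picked by eye from the printed windows, and no other window of the bound genes held them. The 15% thus rests on the windows used to pick the letters, and it was not tested.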
